A study of Mus musculus with 12 samples.

Results

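The genes described here encode 6 secreted insulin-like growth factor (IGF) binding proteins (Igfbp2, Igfbp3, Igfbp4, Igfbp5, Igfbp6 and Igfbp7) and the receptors Igf1r and Igf2r. They are 8 of the 53715 genes measured in pancreatic tumour organoids of the mouse, and 5 of the 8 passed the filter on low counts that left 14473 genes for testing. They were picked by name, with their levels in these libraries already known, so the threshold calls given for them describe these libraries and are not independent support. Binding proteins hold IGF1 and IGF2 outside the cell, carrying them or keeping them from the receptor, and proteases release the ligands by cutting the carriers. Igf1r is the tyrosine kinase that passes the signal on through insulin receptor substrates and PI3 kinase. Igf2r, an imprinted gene, encodes the mannose 6-phosphate receptor, which sorts lysosomal enzymes and removes IGF2 from the surface. Igfbp7, a related protein with a low affinity for IGFs, is often counted with the family.

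Total RNA was sequenced from 12 libraries of organoids, which are epithelial cultures grown in a Matrigel dome. The organoids came from pancreatic ductal adenocarcinomas of C57/Bl6 mice, and all of them share a Pdx1-Cre driver, which acts in the pancreatic epithelial lineage, with KrasLSLG12D/+ and Trp53LSLR172H/LOH alleles per the sample labels (the series text gives Trp53LSLR172H/+). For each of 2 lines, mT6 and mT69a, the groups were a clone knocked out at the neutral Rosa26 locus and given an empty vector (control), a clone knocked out for Spdef and given the same vector (knockout), and Spdef-knockout cells given an SPDEF vector (vector), with 2 libraries per group. SPDEF belongs to the ETS transcription factors and is known from secretory epithelium. Since the knockout of each line rests on 1 clone, loss of Spdef and the history of that clone cannot be told apart. Whether the libraries of a group were separate cultures is not stated in the labels, and the p-values cover the spread among these libraries alone, which may be technical.

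Depth ran from 9094295 to 28903831 expected counts per library. Mouse Spdef itself had 30 and 29 counts in the mT6 controls and 0 and 2 in the mT6 knockout. The mT69a controls held 2 and 4 Spdef counts, the mT69a knockout 2 and 0, and the 4 vector libraries 0 to 2, so these counts do not check the knockout of mT69a or the vector of either line. All 8 epithelial markers were expressed, with a summed TPM (an abundance scale that allows for gene length) of 2250 to 5180 per library. All 10 fibroblast markers stayed under 1 TPM in every library, with a sum of 0 to 0.38 TPM and Col3a1, Lum and Thy1 at 0. All 5 endothelial markers were also under 1 TPM (sum 0 to 0.37), and of 6 immune markers only Cd68 exceeded it (sum 2.1 to 14.3 TPM, Adgre1 and Cd3e at 0). Of 5 acinar markers, Cela1 and Bhlha15 exceeded 1 TPM (sum 0.13 to 2.18, Cpa1, Prss1 and Ptf1a at 0), and the 5 endocrine markers summed to at most 0.06 TPM. In bulk RNA, fewer cells of a kind and less RNA per cell cannot be told apart.

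The upstream sequences of the binding-protein genes whose levels differed most are shown, to let the stretch before each start be compared. Each is the 250 bases before the start in RefSeq's table for GRCm38.p6, 5′ to 3′ on the gene's strand, at chr11:99040994-99041243 (plus strand) for Igfbp4, chr11:7213924-7214173 (minus) for Igfbp3 and chr5:77408046-77408295 (minus) for Igfbp7.
Igfbp4: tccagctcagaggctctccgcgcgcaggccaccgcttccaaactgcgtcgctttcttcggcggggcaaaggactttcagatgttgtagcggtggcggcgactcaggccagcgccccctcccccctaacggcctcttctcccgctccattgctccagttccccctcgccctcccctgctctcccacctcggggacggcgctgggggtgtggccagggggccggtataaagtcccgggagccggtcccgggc
Igfbp3: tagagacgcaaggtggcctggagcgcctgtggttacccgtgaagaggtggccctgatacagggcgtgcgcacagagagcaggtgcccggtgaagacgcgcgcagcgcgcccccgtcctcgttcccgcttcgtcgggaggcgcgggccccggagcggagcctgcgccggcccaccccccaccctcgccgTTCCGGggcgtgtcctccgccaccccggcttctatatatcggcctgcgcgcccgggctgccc
Igfbp7: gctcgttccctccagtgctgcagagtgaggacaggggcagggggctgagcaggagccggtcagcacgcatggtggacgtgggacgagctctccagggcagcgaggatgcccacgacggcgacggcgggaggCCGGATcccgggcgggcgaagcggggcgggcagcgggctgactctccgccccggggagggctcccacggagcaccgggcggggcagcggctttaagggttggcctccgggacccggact
Capitals mark matches, on either strand, to CCGGAT or CCGGAA, which hold the GGA core of ETS-family sites. Igfbp7 held CCGGAT 119 to 114 bases before its start, Igfbp3 held CCGGAA on the other strand, 62 to 57 bases before its start, and Igfbp4 held neither. The windows of the other 5 genes (with 2 windows for Igfbp2) held neither. Of 32851 such windows of 27025 genes, 4.94% held CCGGAT, 12% held CCGGAA and 15.6% held either, so such matches are common and describe only these letters.

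Igfbp4, whose TPM in the mT6 controls exceeded that of the other 5 binding-protein genes, was lower in the knockout of mT6 and higher in the knockout of mT69a. The gene lies at chr11:99041244-99054392 (GRCm38, plus strand). CPM (counts scaled to library size, with TMM factors) were 86.1 and 71.9 in the mT6 controls, 6.28 and 2.85 in the mT6 knockout and 10.3 and 9.51 with the vector. The mT69a controls had 0.813 and 0.943 CPM, against 6.34 and 6.52 in the knockout and 18.6 and 22.6 with the vector. No pair of groups within a line overlapped. Here and below, the share of all genes without such overlap was not counted. With 2 libraries per group, groups can separate without a true difference.

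In mT6 the summed counts, scaled by depth, were 18.7-fold lower in the knockout (95% exact counting interval 15.7 to 22.5; 12.2-fold without knockout library 2 and 26.8-fold without knockout library 1). In mT69a they were 7.33-fold higher (4.88 to 11.4). On the log2 scale of the edgeR fit these were -4.16 ± 0.30 and 2.86 ± 0.36 (SE), and the difference between the lines was 7.03 ± 0.46. The vector libraries were higher than the knockout in both lines, by 2.43-fold in mT6 (1.92 to 3.08; log2 1.17 ± 0.30) and by 3.15-fold in mT69a (2.67 to 3.73; log2 1.68 ± 0.28). The mT6 figure was 1.58-fold without knockout library 2. The vector libraries therefore lay on opposite sides of their controls, 7.73-fold lower in mT6 (6.62 to 9.07) and 23.1-fold higher in mT69a (15.7 to 35.3), with a control shared between these comparisons and those of the knockout.

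Ordered by mean CPM, Igfbp4 ran from the mT6 controls (79 ± 10, SD, n = 2) through mT69a with the vector (20.6 ± 2.77), mT6 with the vector (9.9 ± 0.547), the mT69a knockout (6.43 ± 0.128) and the mT6 knockout (4.57 ± 2.42) to the mT69a controls (0.878 ± 0.092). The knockouts of the 2 lines differed by less than the SD of the mT6 knockout. The controls differed most, with mT69a 87.4-fold lower than mT6 (59.9 to 133; log2 -6.48 ± 0.35). Of the 21 tested genes within 500 kb of Igfbp4, the median log2 difference between knockout and control was 0.16 in mT6 (range -2.34 to 2.11) and 0.04 in mT69a (-1.85 to 3.06).

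The deposited transcript estimates split Igfbp4 mainly between Igfbp4-201, a protein-coding transcript of 3831 bases, and Igfbp4-203, a processed transcript of 785 bases. Another protein-coding transcript, Igfbp4-205 of 489 bases, is not part of that pair. The median shares of the gene's abundance over the 12 libraries were 46.9% for Igfbp4-201 (range 18.4% to 100%) and 46.8% for Igfbp4-203 (0% to 75.6%). For Igfbp4-205 the median was 1.25% (0% to 24.3%). Igfbp4-201 alone had 21.6 and 15.6 TPM in the mT6 controls, 1.68 and 0.75 in the knockout and 2.38 and 2.1 with the vector. In mT69a its TPM were 0.25 and 0.14 in the controls, 2.02 and 1.27 in the knockout and 4.91 and 4.89 with the vector. Igfbp4-201 thus showed the same order of groups within each line as the gene.

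**Figure D1:**
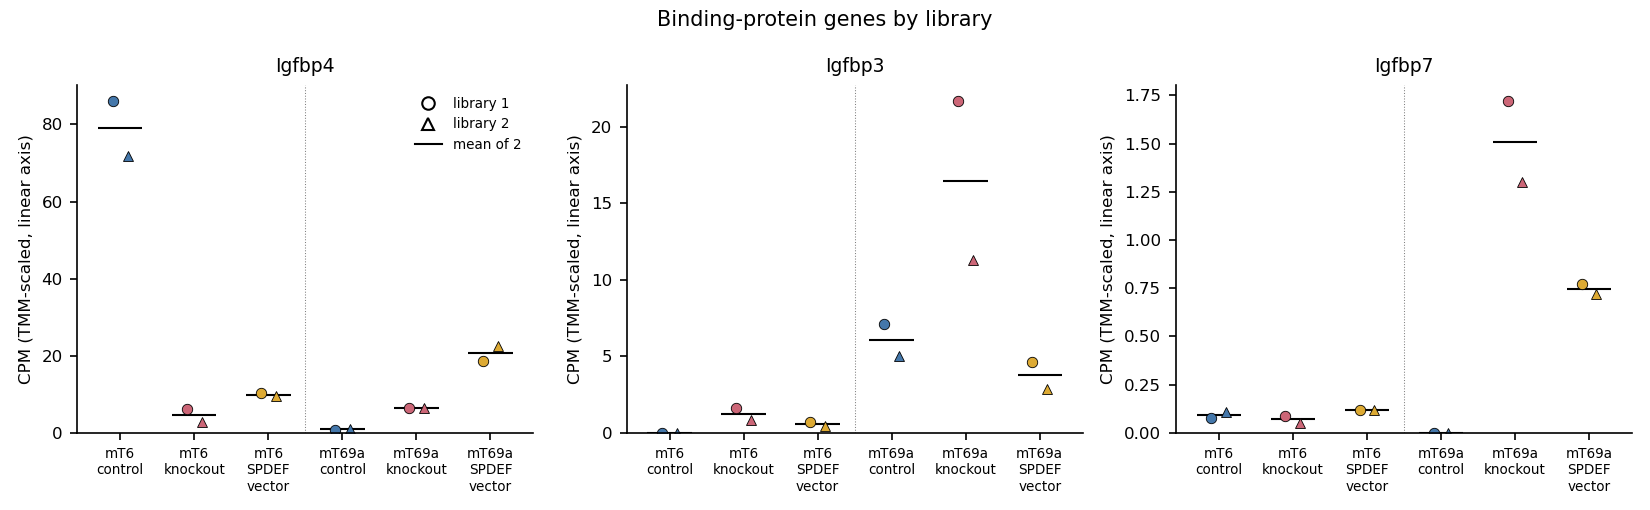
CPM (TMM-scaled, linear axes that differ between panels) of Igfbp4, Igfbp3 and Igfbp7 in each library, by line and condition, with circles for library 1, triangles for library 2 and a bar at the mean of 2. Igfbp4 was highest in the mT6 controls at 86.1 and 71.9 CPM, while Igfbp3 and Igfbp7 were highest in the mT69a knockout.

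Igfbp3, the main carrier of IGFs in blood, was higher in the knockout than in the control of both lines, and lower again with the vector. It lies at chr11:7206086-7213923 (minus strand). The mT6 controls had no count, the mT6 knockout 18 and 17 counts (1.59 and 0.836 CPM) and the mT6 vector libraries 6 and 4 (0.701 and 0.470 CPM). In mT69a, CPM were 7.13 and 5.05 in the controls, 21.7 and 11.3 in the knockout and 4.63 and 2.89 with the vector. The groups of each line did not overlap.

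Against the floor of 3 counts over the group, Igfbp3 was at least 15.2-fold higher in the mT6 knockout than in the control, a bound that was 4.84-fold without control library 2. It was 2.89-fold higher in the mT69a knockout (2.44 to 3.43; log2 1.44 ± 0.39), and 1.85-fold without knockout library 1. With the vector, Igfbp3 was 1.89-fold lower than in the knockout in mT6, an interval of 0.916 to 4.28 that spans no difference (log2 -0.97 ± 0.63). In mT69a it was 4.5-fold lower (3.66 to 5.57; log2 -2.12 ± 0.40), and 2.87-fold without knockout library 1. The mT69a vector libraries were also 1.56-fold below the controls (1.22 to 1.99).

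By mean CPM the order for Igfbp3 was the mT69a knockout (16.5 ± 7.32, SD, n = 2), the mT69a controls (6.09 ± 1.47), mT69a with the vector (3.76 ± 1.23), the mT6 knockout (1.21 ± 0.534), mT6 with the vector (0.585 ± 0.164) and the mT6 controls at 0. All 6 mT69a libraries lay above all 6 mT6 libraries. Between the controls the difference was at least 84-fold, or at least 26.8-fold without mT6 control library 2.

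Igfbp7 was found mainly in the Spdef-knockout libraries of mT69a, with either vector. It lies at chr5:77349240-77408041 (minus strand), and its counts are low throughout. The mT69a controls had 0 counts, the knockout 32 and 15 (1.72 and 1.3 CPM) and the vector libraries 13 and 8 (0.771 and 0.722 CPM). The 6 mT6 libraries had 1 to 3 counts each. In mT69a the knockout was at least 16.1-fold above the control (at least 7.73-fold without control library 1 and 8.33-fold without control library 2). With the vector it was 2.08-fold lower than in the knockout (1.22 to 3.66), which left it at least 7.73-fold above the control. In mT6 the knockout, with 2 counts in all, and the control, with 4, gave a ratio of 1.54-fold lower with an interval of 0.22 to 17.

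Some marker sums of other cell types moved with these genes. In mT69a the 6 immune markers summed to 4.02 to 5.15 TPM in the controls, 7.36 to 14.3 in the knockout and 3.56 to 5.76 with the vector, with Adgre1 and Cd3e at 0 throughout. The 5 endothelial markers summed to 0 to 0.07 TPM, 0.27 to 0.37 and 0.1 to 0.16 in the same groups. The 5 acinar markers, with Cpa1, Prss1 and Ptf1a at 0 throughout, summed to 0.9 to 1.02 TPM in the mT69a controls, 0.13 to 0.15 in the knockout and 0.24 to 0.54 with the vector. In mT6 the acinar sum was 1.58 to 2.18 TPM in the controls, 0.37 to 0.98 in the knockout and 0.4 to 1.68 with the vector. Their part in the values of Igfbp3, Igfbp4 and Igfbp7 was not tested.

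The remaining binding-protein genes were at or near the floor, which in a single library is 0.107 to 0.352 CPM. Igfbp2 (chr1:72824503-72852474) had no count in any library, and Igfbp5 (chr1:72857932-72874884), its neighbour, had 5 counts in all. Igfbp6 (chr15:102144362-102149511), which is known to prefer IGF2, had 12 counts in all. Of these, 5 and 4 fell in the vector libraries of mT69a against 0 in its knockout and control. That was at least 3.23-fold above the knockout, a bound that was 1.23-fold without knockout library 1 and 2-fold without knockout library 2. These depths do not show whether the 3 genes are silent.

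Summed over the 6 binding-protein genes, the TPM came mostly from Igfbp4 in every mT6 library and in the mT69a vector libraries, but not in the other mT69a libraries. The mT6 controls had 48.8 and 41.9 TPM, of which Igfbp4 made up 99.8% and 99.6%. The mT6 knockout had 4.32 and 1.26 TPM (78.7% and 59.5% from Igfbp4) and the mT6 vector libraries 6.49 and 5.51 (93.1% and 94%). In mT69a the controls had 3.82 and 3 TPM, the knockout 18.7 and 10.4 and the vector libraries 13.1 and 10.4. Igfbp4 held 6.54% and 26.3% of the sum in the control libraries of mT69a, 19.4% and 39.2% in its knockout and 73% and 79.4% with the vector. The shares of the mT69a control and knockout overlapped. The sum thus ranked control highest in mT6 and lowest in mT69a, and the groups compared with control did not overlap it in either line. The sums and shares depend on how Igfbp4 reads were split between transcripts. Igfbp4-203, of 785 bases, had 682 counts against 3471.6 for Igfbp4-201, but a median 46.8% of the gene's TPM. In mT69a control library 2 it held 0.59 of 0.79 TPM on 5.66 counts, while library 1 had no count for it.

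**Figure D2:**
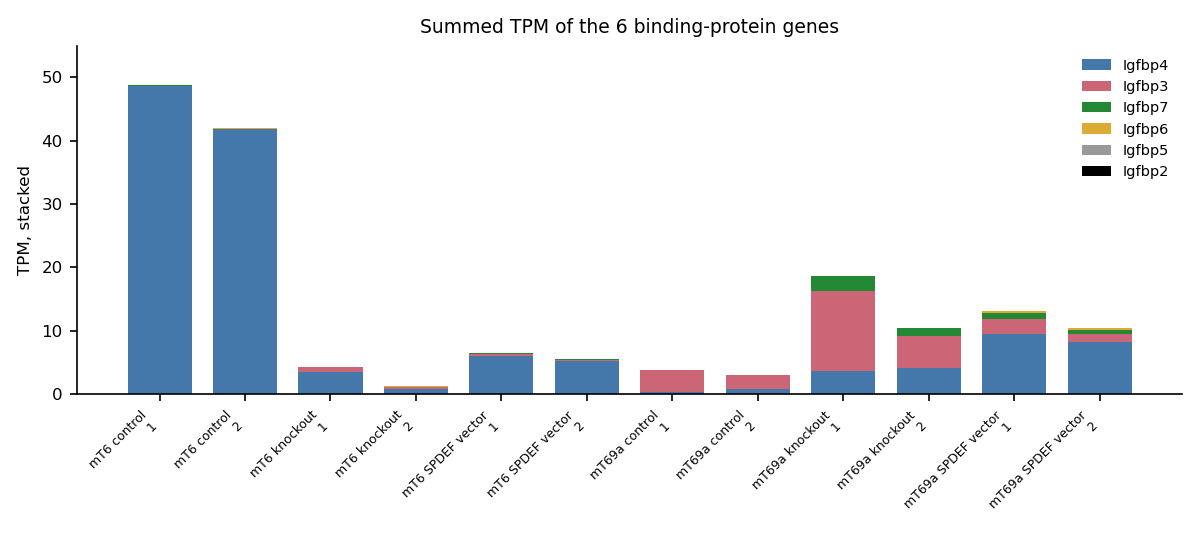
Stacked TPM of the 6 binding-protein genes in each of the 12 libraries, in the order control, knockout, vector for mT6 and then mT69a. Igfbp4 fills nearly the whole bar in the mT6 controls (48.8 and 41.9 TPM), but 19.4% and 39.2% of it in the mT69a knockout. Its part depends on how its reads were split between transcripts of unlike length.

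The receptor genes differed far less between groups than the binding-protein genes. Igf1r (chr7:67952827-68233668, plus strand) was lower in mT69a controls than in mT6 controls and differed little within mT6. Its CPM in mT6 were 25.2 and 33.7 in the controls, 24.1 and 27.1 in the knockout and 23.7 and 25.4 with the vector. The mT69a controls had 15.1 and 17.2 CPM, against 20.2 and 28.6 in the knockout and 16.3 and 18.2 with the vector. In mT6 knockout and control overlapped, and so did vector and knockout. In mT69a both knockout libraries lay above all control and vector libraries.

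The log2 difference between knockout and control in Igf1r was -0.21 ± 0.19 (SE) in mT6 and 0.59 ± 0.20 in mT69a, and that between vector and knockout was -0.06 ± 0.20 and -0.50 ± 0.20. The mT69a controls were 1.93-fold below those of mT6 (1.74 to 2.14; log2 -0.88 ± 0.20). Ordered by mean CPM, the mT6 controls (29.5 ± 6.04, SD, n = 2), the mT6 knockout (25.6 ± 2.06), mT6 with the vector (24.5 ± 1.16) and the mT69a knockout (24.4 ± 5.94) differed from their neighbours by less than their spread. So did mT69a with the vector (17.3 ± 1.34) and the mT69a controls (16.1 ± 1.49), which formed the lower end.

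Igf2r (chr17:12682406-12769664, minus strand) differed more by library number than by condition. Its CPM were 98.4 and 245 in the mT6 controls, 149 and 278 in the knockout and 133 and 292 with the vector. The mT69a controls had 130 and 277 CPM, against 135 and 205 in the knockout and 163 and 283 with the vector. Library 2 was the higher in 6 of 6 groups, and every pair of groups compared overlapped. The log2 difference between knockout and control was 0.31 ± 0.59 in mT6 and -0.26 ± 0.59 in mT69a, and that between vector and knockout was -0.01 ± 0.59 and 0.39 ± 0.59. With the replicate number as a block the SE was 0.14 and the same differences were 0.38, -0.18, -0.04 and 0.36. The share of counts from mitochondrially encoded genes moved with the library number too, from 12.7% to 15.5% in the 6 first libraries and from 18.6% to 27.1% in the 6 second ones. Its part in the Igf2r values was not tested.

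On the scale of TPM, Igf2r exceeded Igf1r in every library, by 5.01-fold to 16.8-fold, and made up 83.4% to 94.4% of the sum of the 2 receptor genes. Airn, the antisense RNA that overlaps Igf2r (chr17:12741311-12860136, plus strand) and is known for its role in imprinting, was present at 2.63 to 8.31 TPM. The kit marks strand, but how strand was set in counting is not given in the sources used here, so reads of the overlap may be shared between them. The median log2 difference over the 690 tested genes of chromosome 17 was -0.44 between knockout and control in mT6 and 0.03 in mT69a, and 12 genes within 500 kb of Igf2r had medians of -0.40 and -0.08. For the mT69a controls against the mT6 controls these medians were -0.43 over the chromosome and -0.46 near Igf2r. Spdef lies on chromosome 17 too.

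**Figure D3:**
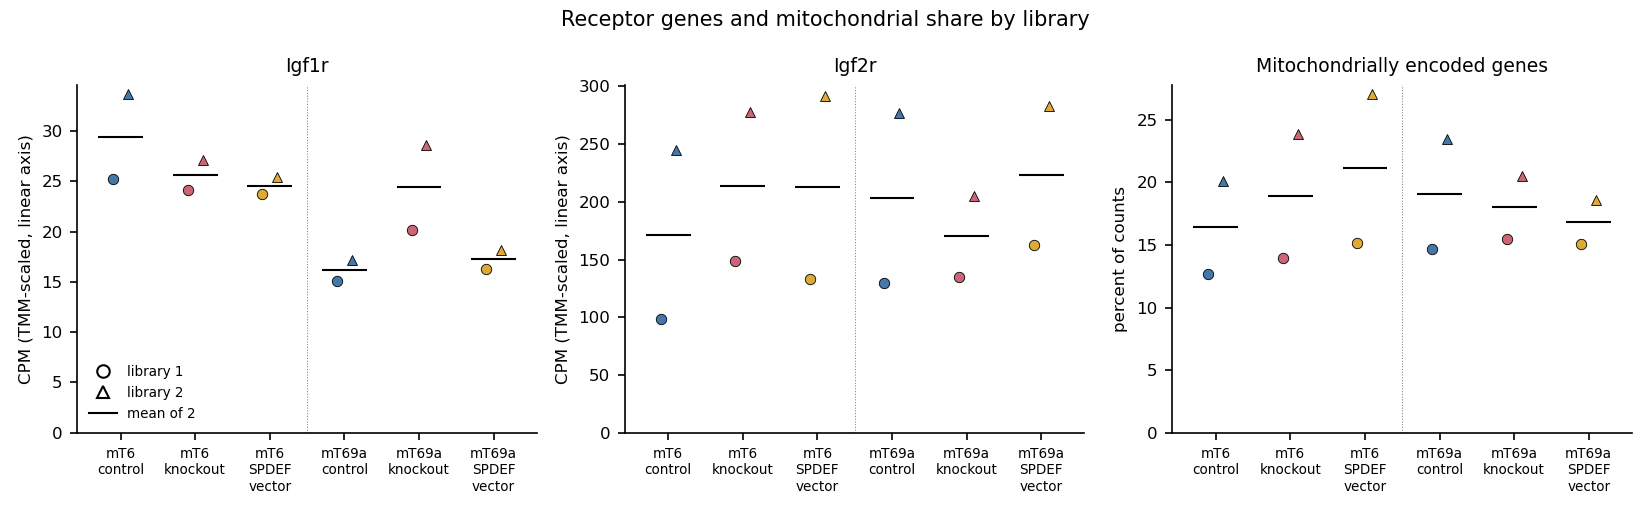
CPM of Igf1r and Igf2r and the percent of counts from mitochondrially encoded genes in each library, with circles for library 1, triangles for library 2 and a bar at the mean of 2. The Igf2r triangles lie above the circles in 6 of 6 groups, as do those for the mitochondrial share.

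Across all genes, 3.23% of those tested passed an adjusted p of 0.05 (edgeR quasi-likelihood test, Benjamini-Hochberg) between knockout and control in mT6 and 8.6% in mT69a. Of the 5 measured genes of the family, Igfbp3 and Igfbp4 were past it in mT6, and Igfbp4 and Igfbp7 in mT69a. The difference between lines passed for 6.62% of all genes and for Igfbp3, Igfbp4 and Igfbp7. For vector against knockout in mT6 it was 2.69% of genes and none of the 5 by edgeR (1 at an unadjusted p under 0.05, and Igfbp4 past the threshold by DESeq2). In mT69a it was 4.25% of genes, with Igfbp3 and Igfbp4. Between controls it was 28.2% of genes with Igfbp3, Igfbp4 and Igf1r. Because the genes were picked with these values known, nothing is read from these counts. The median log2 difference of the 5 genes was -0.21 in the mT6 knockout and 1.44 in the mT69a knockout, beside 0.01 and -0.01 over all genes.

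The call of Igfbp3 in the mT6 knockout was lost without mT6 control library 2 or knockout library 1, and that in the difference between lines was lost in 8 of 12 fits that left out a library. The Igfbp7 difference between lines lost its call without mT6 control library 2, mT6 knockout library 2 or mT69a knockout library 1. With the vector in mT69a, Igfbp3 lost its call without knockout library 1 or either vector library, and Igfbp4 without either knockout library or vector library 2. Igf1r between controls lost it without mT6 control library 2 or mT69a control library 1. By limma on log2(TPM + 1), the calls of Igfbp3 in the mT6 knockout and in the difference between lines, of Igfbp4 with the vector in mT69a and of Igf1r between controls were lost. By DESeq2, and without a filter on low counts, Igfbp3 was past the threshold in the mT69a knockout and Igfbp4 with the vector in mT6. With the replicate number as a block, Igfbp3 and Igf1r were also past the threshold in the mT69a knockout, Igfbp4 with the vector in mT6, and Igf1r with the vector in mT69a and in the difference between lines in the knockout.

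The genes whose log2(CPM + 1) ran most like each member over the 12 libraries were, by Pearson's r, Parg (0.953), H2-Q7 (0.939) and Ptk7 (0.934) for Igfbp4. For Igfbp3 they were Gtf3a (0.975), Tars2 (0.959) and Anxa6 (0.959), and for Igfbp7 Timp3 (0.976), Ifi204 (0.972) and Smoc1 (0.965). For Igf1r they included Zrsr2 (0.949) and Rnf130 (0.923). The genes most like Igf2r were the mitochondrial mt-Rnr2 (0.948), mt-Atp8 (0.939) and mt-Co1 (0.919). Each is the top of about 11058 genes and the libraries share lines and library numbers, so these values are a description.

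The other genes of the pathway were read from 7 lists with 101 genes, 80 of them tested. None of the 4 ligand genes passed the count filter. Igf1, Ins1 and Ins2 had no count in any library, and Igf2 had 1 count in the mT69a knockout and 1 with the vector in mT69a.

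In the knockout of mT6, 1 of the 80 pathway genes rose and 1 fell, with 16 at an unadjusted p under 0.05, against 5 genes past the threshold by DESeq2 and 9 with the replicate block. Of all genes 3.23% passed without the block, and the median log2 difference of the 80 was 0.02, beside 0.01 over all genes. Mmp7, a matrix protease known to cut binding proteins, fell 13-fold (9.15 to 19.1) from 23.4 and 8.96 CPM to 1.33 and 0.886 (edgeR adjusted p = 0.00503; 0.0673 without knockout library 2). Shc1, an adaptor of the receptor kinase, rose 1.37-fold (1.32 to 1.42) from 121 and 134 CPM to 189 and 173 (edgeR adjusted p = 0.04). The Shc1 call was lost in 10 of 12 fits that left out a library, with an adjusted p up to 0.257 without knockout library 1.

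In the knockout of mT69a, 5 of the 80 rose and 2 fell (18 past the threshold with the block). Of all genes 8.6% passed without the block, and the median of the 80 was 0.04 beside -0.01 over all genes. Of 9 tested proteases and their inhibitors, 3 passed the threshold (5 with the block), beside 1 in mT6 (1 with the block). The serine protease Htra1 rose 10.6-fold (4.6 to 30) from 0.188 and 0.202 CPM to 2.04 and 2.09 (edgeR adjusted p = 0.0216; 0.142 without control library 2). Adamts1, a protease at 0 counts in the control, rose at least 8.54-fold to 0.806 and 0.87 CPM (edgeR adjusted p = 0.0093; 0.059 without control library 2).

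Among 32 tested genes of receptor signalling in mT69a, 2 rose and 0 fell without the block, and in mT6 1 rose and 0 fell. With the block 5 passed in each line, of which 4 rose in mT69a and 2 in mT6, and the others fell. DESeq2 called 2 in mT69a and 3 in mT6. Of all genes 8.6% passed in mT69a and 3.23% in mT6 without the block. Pik3r3, a regulatory subunit of PI3 kinase, rose 2.3-fold (1.94 to 2.73) from 7.94 and 5.05 CPM to 14.4 and 16.1 (edgeR adjusted p = 0.00378). Irs1, a main substrate of the receptor, rose 1.8-fold (1.66 to 1.96) from 29.6 and 29.4 CPM to 51.7 and 55.4 (edgeR adjusted p = 0.0369), a call lost in 8 of 12 leave-out fits, with an adjusted p up to 0.21 without control library 2.

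**Figure D4:**
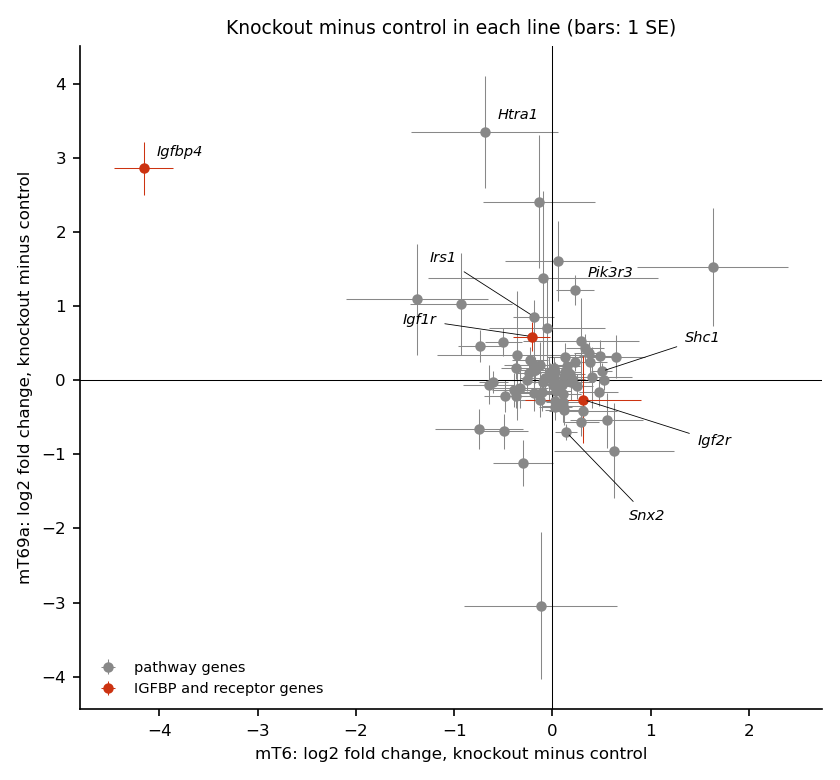
Log2 fold change between knockout and control in mT6 (horizontal) and mT69a (vertical) for 3 genes of the family (red) and 75 pathway genes (grey), with bars of 1 SE; 2 and 4 genes with a group at 3 counts or fewer are left out. Among the genes plotted, Igfbp4 lies farthest to the upper left (-4.16 and 2.86), while most pathway genes lie near 0 in both lines. Mmp7, Adamts1, Itga5 and Igfbp7 of the family, left out for their low counts, also had fitted values below 0 in mT6 and above 0 in mT69a. For Igfbp7 these were -0.52 ± 0.89 (SE) and 7.51 ± 0.98.

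The difference between the lines in the knockout passed for 6.62% of all genes. It passed for 7 of 80 pathway genes, 5 higher in mT69a and 2 lower, and for 19 with the block. Among them were Mmp7 (edgeR adjusted p = 0.00325), Adamts1 (0.00681), Snx2 (0.00891), Itga5 (0.00994), Sos1 (0.0465) and Gusb (0.0475).

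In the mT69a knockout edgeR called 1 of the 4 tested cell-surface partners without the block and 3 with it, and DESeq2 called 2. In mT6 each of these fits called 0. Of the 26 genes of mannose 6-phosphate sorting, 1 passed in mT69a (3 with the block) and 0 in mT6 (1 with the block). Of all genes 8.6% passed in mT69a and 3.23% in mT6 without the block. Itga5, a fibronectin receptor subunit and known partner of binding proteins, rose at least 5.12-fold in mT69a from 0 counts to 0.376 and 0.696 CPM (edgeR adjusted p = 0.0151; 0.0802 without control library 2), 1 of the 4 tested on its list. Lrp1, an endocytic receptor, went from 2.81 and 10.4 CPM in the mT69a control to 0.484 and 1.22 in its knockout (edgeR adjusted p = 0.111; 0.000137 with the block). Itgb1 was at 285 and 346 CPM in the mT6 controls and 314 and 378 in the knockout, and in mT69a at 215 and 267 against 283 and 315 (edgeR adjusted p = 0.439; 0.0268 with the block). Cd93 had 1 count in all. Of the 26 sorting genes, the retromer-associated Snx2 fell 1.61-fold in mT69a (1.51 to 1.72), from 77.4 and 77.2 CPM to 49.6 and 45.1 (edgeR adjusted p = 0.00256). None of the 26 passed in mT6 without the block, where 4 had an unadjusted p under 0.05 and DESeq2 called 0. Of the 6 tested genes of other carriers, edgeR called none in either knockout (1 at an unadjusted p under 0.05 in each line, 0 by DESeq2), and Ccn3, a matricellular protein, passed with the block in mT69a (0.155 without it and 0.0139 with it). In mT6, 1 gene of this list passed with the block, Crim1, named here after its values were seen, at 21.7 and 38.9 CPM in the controls and 15.8 and 22.9 in the knockout. Of the 3 genes for IGF2 mRNA-binding proteins, edgeR also called none in either knockout (0 in mT6 and 1 in mT69a at an unadjusted p under 0.05, 0 by DESeq2). With the block Igf2bp2 passed in mT6 (adjusted p = 0.0415, from 69.2 and 48.7 to 112 and 72.1 CPM) and Igf2bp1 in mT69a (0.0225, from 43.8 and 33.5 to 27.4 and 21.4 CPM), while Igf2bp3 stayed at or under 1.88 CPM in all libraries. Igfbp1, a carrier on the first of these lists, had no count in any library.

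Between vector and knockout, 2 of the 80 pathway genes rose and 1 fell in mT6 (7 past the threshold with the block), and 5 rose and 2 fell in mT69a (14 with the block). Of all genes 2.69% passed in mT6 and 4.25% in mT69a without the block. The lysosomal protease Ctsl, a cargo of mannose 6-phosphate sorting, rose in both lines, 2.09-fold in mT6 (1.97 to 2.21; edgeR adjusted p = 0.0108, 0.0991 without knockout library 2) and 4.01-fold in mT69a (3.82 to 4.21; 0.000197). In mT69a its CPM went from 74.3 and 61.1 to 271 and 287. Hexa, a lysosomal hexosaminidase, rose 3.75-fold in mT69a (3.2 to 4.4; edgeR adjusted p = 0.00585, 0.058 without knockout library 2), and Gga2, a sorting adaptor, rose 2.22-fold (1.69 to 2.95; 0.0233, but 0.198 without vector library 1).

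Shc1 fell with the vector in both lines, 2.11-fold in mT6 (1.99 to 2.24; edgeR adjusted p = 0.000815) and 1.61-fold in mT69a (1.53 to 1.69; 0.00615, but 0.0869 without vector library 2). Irs1 fell 2.03-fold in mT69a (1.86 to 2.21; edgeR adjusted p = 0.0267), to 26.2 and 26.2 CPM, and this call was lost in 6 of 12 leave-out fits, with an adjusted p up to 0.188 without vector library 1. Itga5 rose 5.69-fold in mT6 (3.05 to 11.3; edgeR adjusted p = 0.048), lost in 12 of 12 leave-out fits (up to 0.198 without knockout library 1), and 6.75-fold in mT69a (3.89 to 12.5; 0.025, but 0.2 without knockout library 1). The difference between the lines in the vector response passed for 0 of 80 pathway genes by edgeR, 5 of them at an unadjusted p under 0.05, and for 1 by DESeq2 and 1 with the block, Ctsl (0.399 without the block and 0.0245 with it). It passed for 0.0138% of all genes.

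Between the controls, 7 of the 80 pathway genes were higher in mT69a and 14 lower (36 past the threshold with the block). Of all genes 28.2% passed without the block, and the median log2 difference of the 80 was -0.19 beside -0.03 over all genes. Irs1 (2.79-fold lower, 2.59 to 3.01; edgeR adjusted p = 0.000741) and Pik3r3 (3.52-fold lower, 3.02 to 4.11; 0.000111) were lower alongside Igf1r. Mmp7 was 418-fold lower on 1 count in mT69a (74.8 to 16600, edgeR adjusted p = 6.75e-05). Stc2, an inhibitor of Pappa, the protease that cuts Igfbp4, was 1.92-fold lower (1.83 to 2.01, edgeR adjusted p = 0.00162). Pappa and Pappa2, on the same list, had no count in any library. Igf2bp1, an IGF2 mRNA-binding protein, was 33.3-fold higher (25 to 45.4; edgeR adjusted p = 7.74e-06), at 43.8 and 33.5 CPM against 1.75 and 0.893, and Tmem219, a receptor for Igfbp3, 2.05-fold higher (1.68 to 2.51; 0.00373).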

How the data were processed

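RNA was sequenced in 12 libraries (6 groups of 2). Per the labels' protocols, total RNA was made into stranded libraries with a TruSeq kit. Per the submitters' processing notes, FastQC 0.11.8, STAR 2.5.2b, RSEM 1.3.0 and GRCm38.p6 were used. The authors deposited expected counts from RSEM and TPM per gene and per transcript, and each transcript's share of its gene's abundance as a percent. Gene names came from GENCODE M21 (53620 of 53715 identifiers matched without regard to version), and the 95 genes without a name held 0.0109% of the counts. Expected counts were rounded, and 8.08% to 11.3% were not whole within 0.005. Genes were filtered with filterByExpr and fitted together with edgeR 4.0.16 (TMM, robust quasi-likelihood, 6 residual degrees of freedom, R 4.3.3), two-sided, with Benjamini-Hochberg adjustment over all 14473 genes. On simulated counts the fit was tested for known changes. A fold is the ratio of summed counts over summed effective depth, with a 95% exact interval. Intervals and floors cover counting error only. A fold against a group at 0 uses a floor of 3 counts.

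Libraries with the same number, as the labels give it, deviated together: over 15 pairs of groups, the correlation of their deviations from the group means was 0.205 to 0.531, so a fit with the number as a block was added beside results it changes. Other alternatives were RLE scaling, no filter, DESeq2 1.42.0, limma 3.58.1 on log2(TPM + 1) and leaving out each library. Members and lists were chosen with earlier results of these data known. From each list, genes past the threshold with the smallest adjusted p (at most 3 per comparison) and all genes of lists of 5 or fewer could be named, apart from a few not reported here, as could the 3 genes most like each member with a mean of at least 1 CPM. Intermediate tables and plots used Python 3.11.15, pandas 2.3.3, scipy 1.17.1 and matplotlib 3.10.9.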

Additional observations from a re-analysis of the deposited data

Results flagged for a closer look

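Igfbp4 drew attention because its response to the knockout ran in opposite directions in the 2 lines, lower in both mT6 libraries and higher in both mT69a libraries than in any control of the same line, a log2 difference of 7.03 between lines. The interaction term of the edgeR fit passed the threshold for Igfbp4, in a gene picked with its values known.

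For 6 of the pathway genes named here the response to the knockout differed between the lines by the interaction term of the edgeR fit. That term passed for 6.62% of all genes. The adjusted p was 0.00325 for Mmp7, 0.00681 for Adamts1, 0.00891 for Snx2, 0.00994 for Itga5, 0.0465 for Sos1 and 0.0475 for Gusb. In fits that left out a library, Sos1 lost its call in 8 of 12 (up to 0.18 without mT69a knockout library 1) and Gusb in 9 of 12 (up to 0.168 without mT69a knockout library 2). Sos1 had 49.6 and 39.8 CPM in the mT6 controls, 35.4 and 27.8 in the mT6 knockout, 31.6 and 29 in the mT69a controls and 46.6 and 40.3 in the mT69a knockout. Gusb had 34.5 and 43.6 CPM, 18.3 and 28.2, 30.2 and 29.9, and 35.4 and 47.1 in the same groups. Within single lines neither was called without the block, while with it Sos1 passed in mT6 (adjusted p = 0.0116) and mT69a (0.00666) and Gusb in mT6 (0.00574).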

How the results depend on the processing

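With RLE scaling no count of called genes moved by over 1.5 times. The counts below are of the 80 pathway genes and then of all genes. For knockout against control in mT6 (2 and 468), they were 7 and 1089 without a filter, 9 and 1809 with the replicate block, 5 pathway genes with DESeq2, and 1 and 192 with limma on TPM. In mT69a (7 and 1244) they were 17 pathway genes without a filter, 18 and 2320 with the block, and 2 and 600 with limma. The difference between lines (7 and 958) gave 16 and 1577 without a filter, 19 and 2206 with the block, 11 pathway genes with DESeq2, and 2 and 444 with limma. Vector against knockout in mT6 (3 and 389) gave 10 and 950, 7 and 1055 (block), 5 (DESeq2), and 1 and 229 (limma). In mT69a (7 and 615) it gave 12 and 1175, 14 and 1533 (block), and 3 and 314 (limma). Its difference between lines (0 and 2) gave 4 and 196 without a filter, 1 and 55 (block), 1 and 46 (DESeq2), and 7 of all genes (limma). For the controls (21 and 4078) it was 36 pathway genes with the block, and 12 and 1813 with limma. Leaving out each library gave, in the same order, 0 to 2 and 136 to 499, 4 to 8 and 548 to 1316, 5 to 9 and 533 to 1064, 1 to 2 and 170 to 368, 1 to 8 and 215 to 712, 0 to 0 and 0 to 4, and 13 to 22 and 2040 to 4354. The cause of these moves was not tested. Of 595 alternative values for the 35 log2 differences of the family, 549 moved by less than the spread and 45 moved further. The sign changed in 18 values, over 11 of the 35 differences. Among called differences, 1 turned over: the difference between lines in the knockout for Igfbp3. It was -5.68 on counts with a control group at 0 and 0.60 with limma on log2(TPM + 1). Over all comparisons of the named pathway genes the block added 25 calls and removed 0. Those that touch a value given above stand beside it. The block also changed the counts of called genes in some lists, as given beside those counts. Among the calls of single genes reported, it changed no other. Depth limits Igfbp2, Igfbp5 and Igfbp6 most.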

Other observations

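Adcy1, the only tested gene within 500 kb of Igfbp3 (named after its values were seen), had no count in the 6 mT6 libraries. Counts in mT69a were 97 and 52 for the control, 104 and 40 for the knockout and 5 and 4 with the vector, 14.9-fold below the knockout (95% exact interval 7.61 to 33.1). Igfbp3 had 114 and 75, 403 and 130, and 78 and 32 counts in these groups, so both genes were higher in mT69a and lower with the vector, while Adcy1 did not differ between knockout and control beyond counting error (1.01-fold, 0.798 to 1.28).

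The TPM ratio of Igf2r to Igf1r, which compares receptor genes within a library, was 10.9 and 16.8 for control libraries of mT69a, 7.93 and 8.69 for its knockout and 13.3 and 16 with the vector. In mT6 it was 5.01 and 8.3 in the controls, 7.59 and 9.76 in the knockout and 6.19 and 11 with the vector. The mT69a knockout libraries thus lay below the other 4 mT69a libraries, and the mT6 groups overlapped. In every group the ratio was higher in the library with the higher number, as were the CPM of Igf2r. Taking the ratio therefore did not remove the difference by library number. How often other pairs of genes separate the mT69a groups in this way was not counted.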
